A study of Mus musculus with 6 samples.

Results

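The 8 genes described here encode the muscle acetylcholine receptor and the proteins that gather it at the neuromuscular synapse: Chrna1, Chrnb1, Chrnd, Chrng, Chrne, Musk, Rapsn and Dok7. They were chosen by name, for their known roles and with earlier results of these data known, so the tests below are not independent of that choice. All 8 were among the 21485 genes that every sample was counted on. The samples were 6 populations of mouse muscle-derived stem/progenitor cells (MDSPCs), which are slowly adhering cells enriched from dissociated skeletal muscle by serial preplating on collagen. Of these, 3 populations came from young mice (named Y1-1, PtC5 and FT-QU in the labels) and 3 from old mice (O1-1, NA-f2 and NA-f3), and they are called young 1, 2 and 3 and old 1, 2 and 3 below. All 6 were grown in the same proliferation medium, with fetal bovine serum, horse serum and chick embryo extract and no other treatment named, and were profiled by droplet-based 3′ single-cell RNA sequencing. The labels used here do not state the mice's age beyond young or old, nor strain, sex or genotype, or whether a population came from 1 mouse or was a clone.

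The muscle acetylcholine receptor is a channel of 5 subunits that opens when a motor neuron releases acetylcholine. The α subunit (Chrna1) carries most of the binding site and is joined by the β (Chrnb1) and δ (Chrnd) subunits and by either the γ subunit (Chrng), in fetal or denervated muscle, or the ε subunit (Chrne), in innervated adult muscle. At the synapse, agrin from the nerve binds LRP4, which activates the receptor tyrosine kinase MuSK (Musk); the adaptor DOK7 (Dok7) binds MuSK inside the cell and supports its activity, and rapsyn (Rapsn) binds the receptors and holds them in clusters. Receptor subunit genes are switched on when myoblasts differentiate, and myogenin (Myog), a transcription factor that marks the start of terminal differentiation, binds E-boxes in several of their promoters. E-boxes are the letters CANNTG, which read alike on both strands.

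The promoter sequences of 6 of the 8 genes were matched in RefSeq (GRCm38.p6), as windows of 300 bases from 250 before to 50 after the annotated start. Those with 3 E-boxes and that of Chrne are shown, 5′ to 3′ along the gene, because the results below turn on whether a cell held Myog RNA. Capitals mark the E-boxes.
Chrna1, minus strand, chr2:73580289-73580588: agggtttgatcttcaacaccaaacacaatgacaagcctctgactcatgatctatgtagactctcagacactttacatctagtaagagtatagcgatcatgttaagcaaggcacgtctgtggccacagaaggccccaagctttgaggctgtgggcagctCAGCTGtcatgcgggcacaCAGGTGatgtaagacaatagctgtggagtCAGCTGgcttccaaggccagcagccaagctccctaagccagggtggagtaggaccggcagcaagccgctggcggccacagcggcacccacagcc
Chrnb1, minus strand, chr11:69795888-69796187: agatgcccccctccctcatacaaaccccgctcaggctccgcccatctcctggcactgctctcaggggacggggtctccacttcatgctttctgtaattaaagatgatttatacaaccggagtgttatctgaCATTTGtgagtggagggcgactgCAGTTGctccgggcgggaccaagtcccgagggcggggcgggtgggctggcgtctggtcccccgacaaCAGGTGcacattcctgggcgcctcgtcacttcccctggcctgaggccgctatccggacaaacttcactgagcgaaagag
Chrng, plus strand, chr1:87205561-87205860: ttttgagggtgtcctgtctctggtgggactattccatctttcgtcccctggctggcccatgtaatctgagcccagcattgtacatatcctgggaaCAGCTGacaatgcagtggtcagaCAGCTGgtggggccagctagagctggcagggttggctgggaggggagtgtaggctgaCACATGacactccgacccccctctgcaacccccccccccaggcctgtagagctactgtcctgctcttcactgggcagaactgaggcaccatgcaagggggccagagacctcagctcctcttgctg
Musk, plus strand, chr4:58285712-58286011: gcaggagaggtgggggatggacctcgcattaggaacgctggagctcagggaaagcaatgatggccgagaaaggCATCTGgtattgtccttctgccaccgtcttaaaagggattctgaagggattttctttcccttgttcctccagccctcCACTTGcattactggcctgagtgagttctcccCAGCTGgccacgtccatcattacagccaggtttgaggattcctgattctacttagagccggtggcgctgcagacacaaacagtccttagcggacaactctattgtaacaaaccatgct
Chrne, minus strand, chr11:70619145-70619444: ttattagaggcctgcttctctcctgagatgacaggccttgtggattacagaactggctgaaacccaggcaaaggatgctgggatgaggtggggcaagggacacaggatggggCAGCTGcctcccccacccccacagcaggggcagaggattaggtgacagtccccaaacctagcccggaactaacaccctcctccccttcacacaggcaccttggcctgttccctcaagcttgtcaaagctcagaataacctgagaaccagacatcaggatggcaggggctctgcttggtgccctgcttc

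Among 32851 RefSeq promoter windows of this length, 72.3% held at least 1 E-box and 17.6% held 3 or more. The windows of Chrna1, Chrnb1, Chrng and Musk held 3 each. The form CAGCTG, a palindrome counted once per site, was present 2 or more times in 1.90% of all windows, and the windows of Chrna1 and Chrng each held 2, starting at -92 and -44 for Chrna1 and at -155 and -132 for Chrng from the annotated start. The Chrne window held 1 E-box, at -138, and 1 N-box (letters CCGGAA, searched on both strands) at -76, a motif known from synaptic control of the receptor genes that 14.9% of windows held. Dok7 had 2 annotated starts, with 1 E-box in the window of the first and 0 in that of the second. Chrnd and Rapsn were not matched. A palindrome that resembles the MEF2 site, present in 3.69% of windows, was in none of the members' windows. A match describes the letters of the window and does not show that a factor binds there.

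In the GENCODE annotation of GRCm38, Chrna1 lies at chr2:73563215-73580338, Chrnb1 at chr11:69784036-69795943, Chrne at chr11:70614883-70619216, Musk at chr4:58285960-58374303, Rapsn at chr2:91035620-91045729 and Dok7 at chr5:35056766-35087839. Chrnd (chr1:87190607-87200070) and Chrng (chr1:87204657-87212694) are neighbours on the plus strand, with 4586 bases between them. The RefSeq start of Chrng used for the window above lies 1154 bases downstream of this GENCODE start, so the annotations place the start of Chrng differently. Chrne overlaps 4930544D05Rik and Rapsn overlaps Gm13778, each on the opposite strand. The sources used here do not state how strand was handled in counting, so reads of these pairs cannot be told apart with certainty.

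Of 62849 deposited barcodes, 61673 were kept as cells, 8674 to 12541 per population, with 133608357 to 193380549 unique molecular identifiers (UMIs, counted RNA molecules) per population on the shared genes and a median of 13001 to 19951 UMIs per cell. Young 1 and old 1 were counted on a shorter gene list than the other 4. Any pair of populations shared 24 to 41 barcodes, at most 0.375% of the smaller. Marker genes of the myogenic lineage were found in all 6, with at least 1 UMI of each. Parts of this list were nearly absent from a population, with 1 UMI of Myf5 in young 1, 5 of Pax7 in young 3 and 1 of Msc in old 3. That list of 12 holds Chrna1 itself. Without it, the other 11 summed to 224, 1515 and 246 CPM (counts scaled to a common library total) in young 1, 2 and 3. In old 1, 2 and 3 they summed to 181, 1040.3 and 2778 CPM. The sums were highest in old 3, young 2 and old 2, in that order. Not every gene followed it. Vcam1 was highest in young 3 (98.2 CPM) and lowest in young 2 (10.4 CPM), and Msc was highest in old 1 (0.185 CPM). Myf5 was higher in young 3 (33.3 CPM) than in old 3 (29.7 CPM). Markers of motor neurons summed to 0.0712 to 8.24 CPM, with Slc18a3, which loads acetylcholine into vesicles, at 0 in all 6. Isl1 made up most of each sum. It was highest in old 2, at 7.51 CPM with a UMI in 13.2% of cells, where Elavl4 was next at 0.687 CPM. Markers of Schwann cells summed to 1.89 to 30.7 CPM, with Sox10 at 0 in 3 populations. Fibro-adipogenic markers summed to 206 to 434 CPM, smooth muscle and pericyte markers to 5.42 to 76.0 CPM, endothelial markers to 0.546 to 59.4 CPM and immune markers to 1.28 to 7.40 CPM. The same 3 populations also had the highest sums of smooth muscle and pericyte markers (76.0 CPM in young 2, 44.2 in old 2 and 20.7 in old 3, against 5.42 to 12.3 in the others) and of Schwann markers (30.7, 6.80 and 17.9 CPM, against 1.89 to 6.47). Within both lists the genes were split. Notch3 made up 68.3, 42.0 and 18.3 CPM of the former sums, while Rgs5 was highest in young 3 (10.3 CPM) and Myh11 in old 1 (1.11 CPM). Of the latter, Ngfr made up 19.9 CPM in young 2 and Erbb3 16.3 CPM in old 3, while Mbp was lowest in old 3 (0.345 CPM). The endothelial sum in young 2 was nearly all Tek (58.9 CPM), with Pecam1 next at 0.336 CPM. Among fibro-adipogenic markers, Gsn was highest in every population (149 to 317 CPM). Col3a1 was at 13.3 to 132 CPM and Smoc2 at 1.12 to 103 CPM. Pdgfra reached at most 1.97 CPM, Dcn 1.49 CPM and Lum 1 UMI. The part of these cells in the results was not tested.

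The populations fell on 2 levels of receptor and synapse gene expression, and each age group held populations of both. Chrna1 stood at 168, 801 and 67.3 CPM in young 1, 2 and 3 and at 131, 735 and 1025 CPM in old 1, 2 and 3. Young 2, old 2 and old 3 were thus above the other 3, the lowest of them 4.37-fold above young 1. Without thinning, a Chrna1 UMI was found in 51.8%, 99.0% and 50.7% of the young cells and in 37.2%, 97.4% and 97.7% of the old ones. These are shares of cells with a UMI, not of cells that express the gene. At 5000 UMIs per cell, a Chrna1 UMI was also found in 13.8% to 86.8% of the cells with no UMI of 9 myogenic genes, which are described further on.

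The β, δ and γ subunit genes divided the populations in the same way. Chrnd was at 12.9, 30.2 and 6.45 CPM among the young and 11.3, 47.5 and 45.9 CPM among the old populations. Chrnb1 varied least, with 16.4, 36.3 and 16.5 CPM among the young and 14.8, 43.1 and 38.3 CPM among the old, a range of 2.92-fold. The fetal subunit Chrng was at 5.34, 22.2 and 5.47 CPM among the young and at 2.97, 18.5 and 52.5 CPM among the old, with old 3 standing above the rest. For each of these 3 genes too, young 2, old 2 and old 3 were the highest. Over all members but Chrne, the lowest of these 3 stood 2.19-fold (Chrnb1) to 5.04-fold (Dok7) above the highest of the other populations.

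The adult subunit was rarely detected. Chrne had 0, 2 and 0 UMIs in young 1, 2 and 3 and 3, 28 and 31 UMIs in old 1, 2 and 3, found in at most 0.309% of the cells of any population. Of all UMIs of Chrng and Chrne together, Chrng held 99.2% to 100%, and the lowest bound of the exact 95% binomial intervals, which cover counting error only, was 98.1%, in old 1. In young 1 and young 3, with 0 UMIs, the exact interval allows a share of cells with a Chrne UMI of up to 0.0425% and 0.0342%; it sets no limit on cells that express the gene without a UMI. Chrne was the 1 member whose young and old values did not overlap, which rested on 3 UMIs in old 1 against 2 in young 2. Among the 14512 genes tested, whose CPM were scaled further between samples, 6.05% did not overlap. Chrne was not among these genes. It was too rare for the main fit, and without a filter on low counts its log2 fold change, old over young, was 4.82 ± 1.26 (SE; edgeR's quasi-likelihood test, unadjusted p = 0.00766, adjusted p = 0.999). That value depends on the prior count, since the young group held 2 UMIs. With the filter, Chrne entered the fits without young 1, 2 or 3, without old 1 and on the longer gene list. It did not enter those without old 2 or old 3. In the fits it entered, its value ran from 3.98 without young 3 to 7.18 without young 2. Chrne passed the filter there only through its UMIs in old 2 and old 3, so this range is no check of the value.

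Among the clustering genes, Musk and Dok7 varied most between populations. Musk was at 7.52, 135 and 9.26 CPM among the young and at 4.90, 48.6 and 43.9 CPM among the old, so that its range was 27.6-fold and young 2 stood highest. Dok7, which works on MuSK, was at 1.64, 28.0 and 1.73 CPM among the young and 5.56, 38.4 and 38.9 CPM among the old. Rapsn was at 62.8, 233 and 59.5 CPM among the young and 42.9, 325 and 227 CPM among the old. A Rapsn UMI was found in 50.9%, 93.9% and 56.8% of young and 33.3%, 97.4% and 89.5% of old cells, which is at least 89.5% of cells in young 2, old 2 and old 3.

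**Figure D1:**
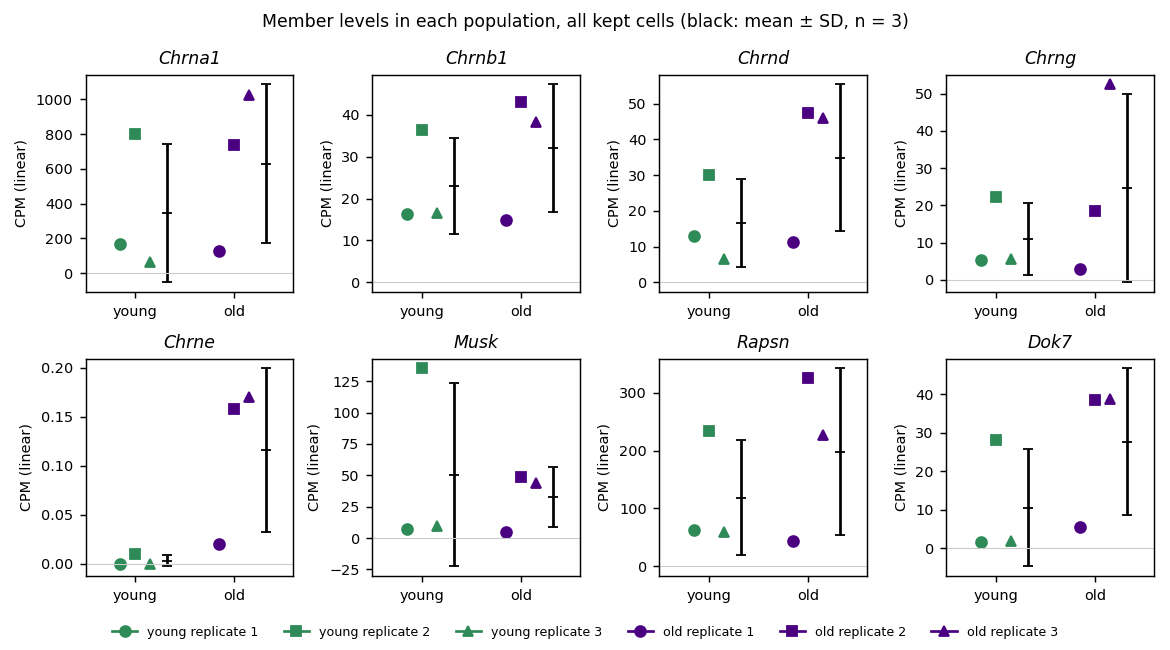
Level of each of the 8 genes in each population (vertical axis, CPM, linear, scaled per gene) for the young and old groups, with black bars for the mean ± SD (n = 3). Young 2, old 2 and old 3 lie above the other populations for every gene but Chrne, and the groups overlap for those 7 genes.

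The study set young against old populations. None of the 7 tested members was called different by age, and the young and old values of each overlapped. Chrna1 averaged 346 ± 398 CPM among the young and 630 ± 456 CPM among the old (SD, n = 3 each), Chrnd 16.5 ± 12.3 and 34.9 ± 20.5 CPM, and Dok7 10.5 ± 15.2 and 27.6 ± 19.1 CPM. In edgeR's quasi-likelihood test on summed counts, 0 of 7 members were called at an adjusted p under 0.05, beside 0.00689% of all 14512 genes (1 gene). Unadjusted p-values of the members ran from 0.189 for Dok7 to 0.646 for Chrna1 and Rapsn, and the adjusted p was 0.999859 for each; DESeq2, which called 219 genes, also called 0 members. The fitted log2 fold changes, old over young, were 0.47 ± 0.96 (SE) for Chrna1, 0.27 ± 0.43 for Chrnb1, 0.75 ± 0.73 for Chrnd, 0.59 ± 0.92 for Chrng, 0.33 ± 0.68 for Rapsn, 1.38 ± 0.93 for Dok7 and -0.76 ± 0.89 for Musk. Those of Chrnd and Dok7 were larger than their SE and those of the other 5 were not. The median of the 7 was 0.47, beside -0.01 over all genes tested. Without young 3, the values of Chrna1, Chrnb1, Chrng and Rapsn turned to -0.24, -0.14, -0.16 and -0.28, without old 3 that of Chrng to -0.28, and without young 2 that of Musk to 0.85. Dok7 moved to 3.12 without young 2 (adjusted p = 0.999983, edgeR) and to 0.84 without young 3, Musk to -1.32 without young 3, and Chrnd to 0.095 without young 3 and 1.33 to 1.38 without young 1, young 2 or old 1. In the 4 populations counted on the longer gene list alone, the values were 1.05 for Chrna1, 0.66 for Chrnb1, 1.38 for Chrnd, 1.42 for Chrng, 0.93 for Rapsn, 1.39 for Dok7 and -0.63 for Musk. Their adjusted p ran from 0.749 to 0.903 (edgeR). The shorter list held 1 population per group and gives no test. Without young 1 or old 1, the gene list term takes up the population left on that list. The age effects of those fits therefore rest on the same 4 populations and are not separate checks. In old 2, genes along chromosome 11, which carries Chrnb1 and Chrne, stood at a median of 0.30 (log2) above their level in the median population, and those along chromosome 5, which carries Dok7, 0.23 above; in young 2 the genes along chromosome 4, which carries Musk, stood 0.13 above. The part of these shifts in the values was not tested.

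Within each population, cells with Myog RNA held more RNA of 7 of the 8 genes than cells without it. To give all cells the same depth, each was thinned at random to 5000 UMIs, which left 60305 cells. Cells with at least 1 Myog UMI then made up 3.58%, 20.6% and 5.30% of young 1, 2 and 3 (302, 2190 and 563 cells) and 0.636%, 14.7% and 45.8% of old 1, 2 and 3 (63, 1255 and 5578 cells). They are called Myog-positive and the others Myog-negative; a cell with no Myog UMI at this depth may still hold Myog RNA. Before thinning, the median depth of positive and negative cells was 11127.5 and 14019.5 UMIs in young 1, where they differed most, and 20061 and 19795 UMIs in old 2, the only population with deeper positive cells.

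All 7 members with enough counts were called higher in Myog-positive cells (edgeR quasi-likelihood test with the population as a term, adjusted p under 0.05), beside 13.6% of all 12379 genes tested that were called higher and 17.5% called lower. The median log2 fold change of the 7 was 1.47, beside -0.06 over all genes. Every one of the 7 was higher in 6 of 6 populations. Without the population as a term, 1 member (Chrng) was called higher, beside 1.32% of all genes. Chrne had too few UMIs, 16 in all thinned cells, of which 4 were in Myog-positive cells.

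Chrng, the fetal subunit, had the largest fitted log2 fold change. Its level in Myog-negative and Myog-positive cells was 4.59 and 77.5 CPM in young 1, 12.2 and 68.2 in young 2, 4.41 and 36.9 in young 3, 2.05 and 92.1 in old 1, 13.1 and 51.6 in old 2 and 30.3 and 81.6 in old 3. The ranges of the positive and negative cells did not overlap across populations. The log2 fold change was 2.80 ± 0.52 (SE, adjusted p = 0.0138, edgeR), and the fold within a population ran from 2.69 in old 3 to 44.9 in old 1, where it rested on 29 UMIs in positive cells. Dok7 had the larger fold in young 1 (26.4 against 16.9) and young 3 (13.7 against 8.38), and Chrng in the other populations. Chrng was also the only member called in all 18 alternatives.

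For Chrna1, the α subunit, UMIs were also counted in many cells with no Myog UMI. Its level in Myog-negative and Myog-positive cells was 169 and 1183 CPM in young 1, 710 and 1141 in young 2, 58.7 and 295 in young 3, 126 and 933 in old 1, 671 and 1175 in old 2 and 799 and 1331 in old 3. Among positive cells, 5 of 6 populations lay between 933 and 1331 CPM and young 3 lay at 295, while the negative cells kept the wide spread of the whole populations. A Chrna1 UMI was found in 34.2%, 93.4% and 22.5% of young and 26.8%, 89.8% and 93.9% of old Myog-negative cells, and in 53.6% to 98.9% of Myog-positive ones, beside 13.8% to 86.8% of the cells with no UMI of 9 myogenic genes. The log2 fold change was 1.72 ± 0.42 (SE, adjusted p = 0.0320, edgeR). Its call was lost when any 1 of the 6 populations was left out, with adjusted p from 0.0526 to 0.0788 and fold changes from 1.49 to 1.91.

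The δ and β subunits had smaller fitted differences than Chrng and Chrna1, and no test compared the genes. Within a population, the fold of Chrnd was larger than that of Chrna1 in young 2 (1.76 against 1.61) and old 3 (1.78 against 1.67). It was smaller in the other populations. Chrnd was at 14.1, 26.2 and 5.40 CPM in young and 10.8, 44.4 and 33.2 CPM in old Myog-negative cells, against 76.8, 46.2 and 23.1 CPM and 69.8, 73.0 and 59.0 CPM in Myog-positive ones. Its log2 fold change was 1.45 ± 0.30 (SE, adjusted p = 0.0135, edgeR). Chrnb1 was at 16.2, 34.5 and 14.4 CPM in young and 14.7, 40.6 and 34.3 CPM in old Myog-negative cells, against 43.0, 41.8 and 23.8 CPM and 50.8, 63.1 and 44.5 CPM in positive ones. Its log2 fold change of 0.76 ± 0.15 (SE, adjusted p = 0.00454, edgeR) was the smallest of the 7, and its levels in positive and negative cells overlapped across populations.

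Among the clustering genes, Dok7 had the largest fitted log2 fold change. Its level in Myog-negative cells was 1.15, 21.4 and 0.854 CPM among the young and 5.47, 30.4 and 24.1 CPM among the old, against 30.5, 52.9 and 11.7 CPM and 44.4, 83.3 and 55.4 CPM in positive cells. The log2 fold change was 2.14 ± 0.54 (SE, adjusted p = 0.0331, edgeR). The call was lost without young 2, young 3, old 1, old 2 or old 3, with adjusted p from 0.0587 to 0.0752 (edgeR) and log2 fold changes from 1.94 to 2.48. Within old 1, the fold of Musk was larger than that of Dok7 (9.81 against 8.13). Musk went from 7.05, 129 and 9.16 CPM in young and 4.86, 41.7 and 33.1 CPM in old Myog-negative cells to 68.2, 174 and 21.3 CPM and 47.6, 93.1 and 64.0 CPM in positive ones. Its log2 fold change of 1.47 ± 0.43 (SE) passed the threshold only just (adjusted p = 0.0497, edgeR) and was called in 7 of 18 alternatives. Without young 2, young 3, old 1, old 2 or old 3 its adjusted p was 0.0633 to 0.123 (edgeR), with log2 fold changes from 1.34 to 1.74. Rapsn was at 66.7, 221 and 59.3 CPM in young and 41.8, 329 and 194 CPM in old Myog-negative cells, against 144, 317 and 122 CPM and 187, 414 and 289 CPM in positive ones, a log2 fold change of 0.92 ± 0.20 (SE, adjusted p = 0.0151, edgeR).

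**Figure D2:**
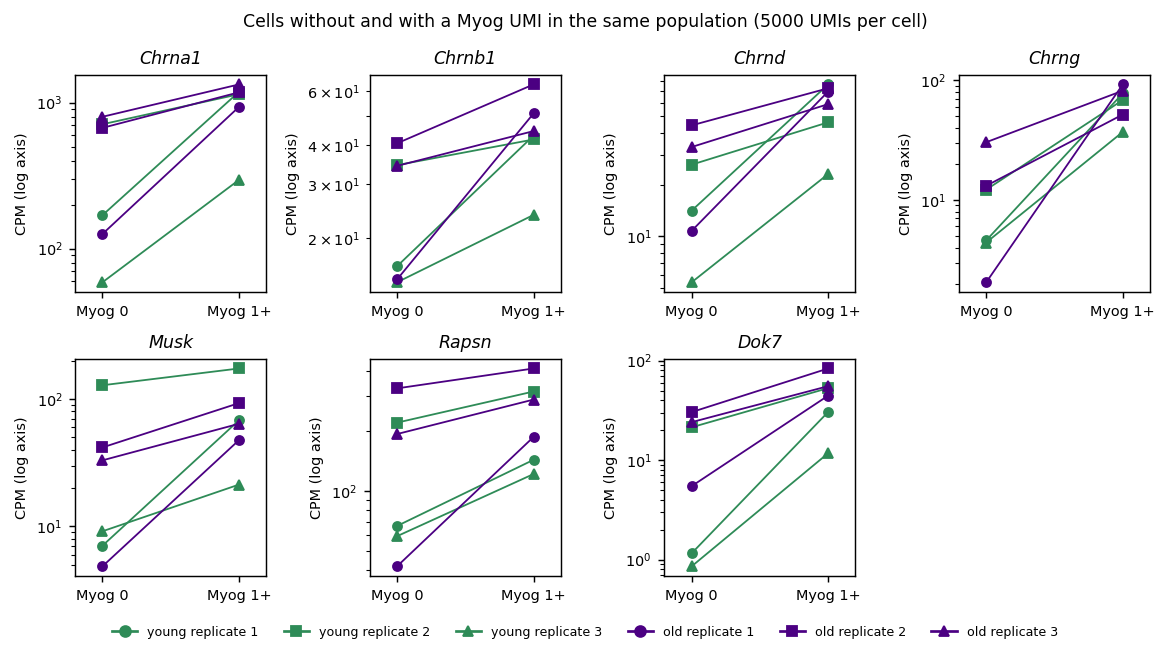
CPM (vertical log axes, scaled per gene) in cells without a Myog UMI (Myog 0) and with at least 1 (Myog 1+), both thinned to 5000 UMIs per cell; each line joins the 2 classes of 1 population. All lines rise from left to right, and the steepest 3 for each gene are those of young 1, young 3 and old 1.

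The folds of all 7 genes were larger in young 1, young 3 and old 1, where the levels were low, than in any of the other 3 populations. A fold is taken over the level of the Myog-negative cells, so their low level there enters the fold itself. As differences in the share of cells with a UMI, this order held for Chrna1 and Rapsn only. Young 3 had the smallest difference for Chrnd, Chrng, Musk and Dok7 (7.11, 12.8, 5.05 and 4.56 percentage points). For Chrnb1, young 3 (4.10) lay below old 2 (7.71). For Chrna1, the positive cells stood 7.0-fold, 5.03-fold and 7.42-fold above the negative ones in young 1, young 3 and old 1, and 1.61-fold, 1.75-fold and 1.67-fold above them in young 2, old 2 and old 3. Whether the difference between Myog classes itself depended on age was tested with an interaction term, and 0 of 7 members were called, beside 0% of the 12379 genes (edgeR; 329 genes had an unadjusted p under 0.05, and DESeq2 called 1 gene). The interaction was -0.47 ± 0.89 (log2, SE) for Chrna1, 0.00 ± 0.33 for Chrnb1, -0.56 ± 0.60 for Chrnd, -0.75 ± 1.09 for Chrng, -0.13 ± 0.96 for Musk, 0.07 ± 0.45 for Rapsn and -1.22 ± 1.04 for Dok7. Without young 2 the interaction of Dok7 was -2.59 (adjusted p = 0.859, edgeR), and without young 1 it was -0.46. Age differences within these errors were not detectable.

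**Figure D3:**
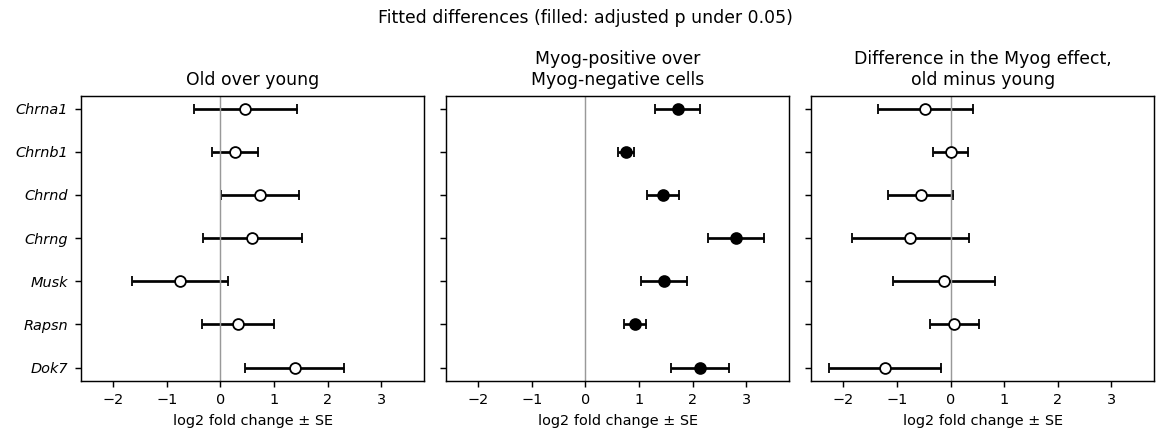
Log2 fold changes (horizontal axis) with their SE for the 7 tested genes in 3 fits: old over young, Myog-positive over Myog-negative cells, and the difference in the Myog effect, old minus young. Filled points have an adjusted p under 0.05, which all 7 genes have in the second fit and none has in the other fits.

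The share of each gene's UMIs that came from Myog-positive cells can be set beside the share of those cells. In old 1, 0.636% of cells were Myog-positive and held 22.3% of the Chrng UMIs, 5.91% of those of Musk, 4.95% of those of Dok7 and 4.54% of those of Chrna1. In old 3, 45.8% of cells held 69.5% of Chrng, 66.1% of Dok7, 62.1% of Musk and 58.5% of Chrna1 UMIs. In 5 of the 6 populations, most Chrna1 UMIs therefore came from cells in which Myog was not found.

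Levels also differed with the number of Myog UMIs in a cell, taken as 0, 1, 2, 3 to 5 and 6 or more. With 6 or more, Chrna1 was at 1816, 1485 and 812 CPM among the young and 1583, 1384 and 1609 CPM among the old populations, the highest class in 6 of 6. It was higher in each successive class in 5 of 6 populations, the exception being young 1 (1094 CPM at 2 and 1036 CPM at 3 to 5 UMIs). Chrng at 6 or more Myog UMIs was at 128, 115 and 102 CPM among the young and 183, 76.8 and 107 CPM among the old, and was likewise highest there in 6 of 6 and higher at each step in 5 of 6. With a single Myog UMI, Chrng was at 34.9, 26.0 and 17.4 CPM among the young and 25.0, 29.3 and 45.6 CPM among the old, already above the cells with 0 in every population. Musk and Chrnb1 were highest in the top class in 3 of 6 populations, Chrnd and Dok7 in 5 and Rapsn in 6. A rise at each step was seen less often for these genes. It was seen in 3 of 6 populations for Musk and Dok7, 2 for Rapsn and 1 for Chrnb1 and Chrnd. For Chrnb1 and Dok7, the cells with 0 Myog UMIs were lowest in 4 of 6. Old 1 had 7 to 24 cells in each class above 0. These values were not tested.

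**Figure D4:**
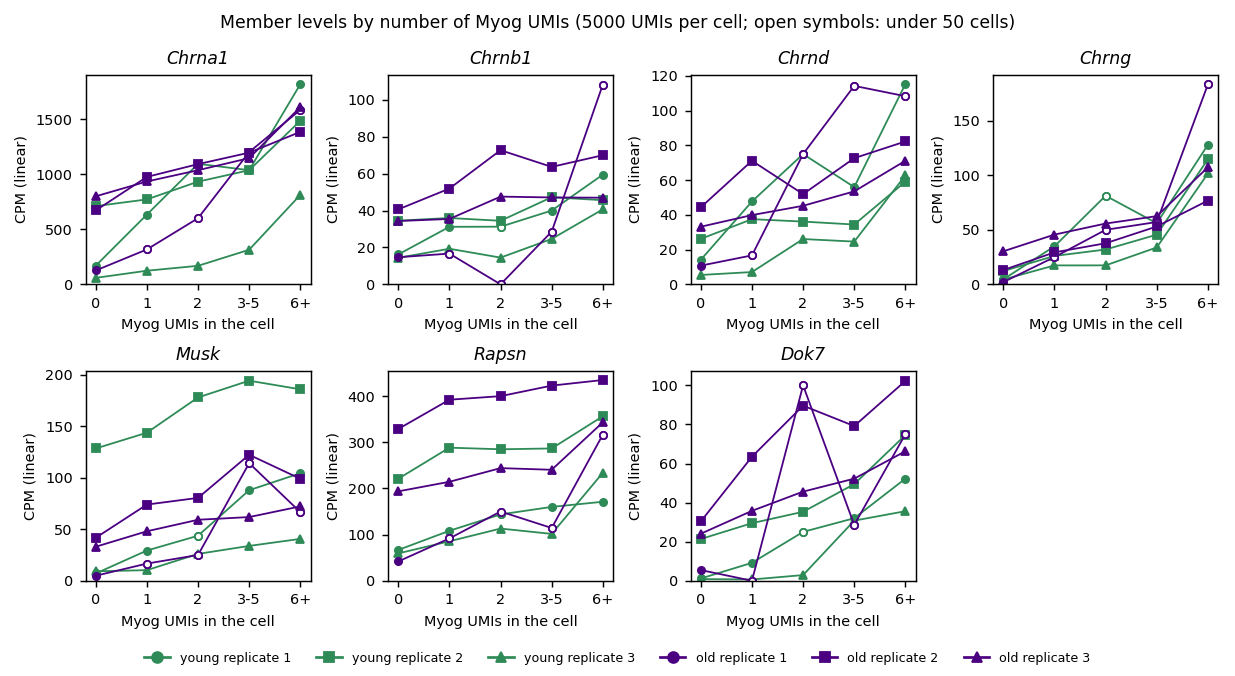
CPM (vertical axes, linear, scaled per gene) by the number of Myog UMIs found in a cell, for each population; open symbols mark classes with under 50 cells. Chrna1 and Chrng are highest at 6 or more Myog UMIs in all 6 populations, whereas Musk and Chrnb1 are so in 3.

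Myog-positive cells also held contractile genes more often, so they were split by stage. Cells with at least 2 UMIs of 6 contractile genes (Myh3, Tnnt3, Tnnc2, Myl1, Acta1 and Ckm together) made up 70.2%, 65.5% and 19.7% of young and 52.4%, 54.9% and 77.7% of old Myog-positive cells, and 0.264% to 23.7% of Myog-negative ones. Cells with a UMI of 4 cycling genes (Mki67, Top2a, Cdk1 and Ccnb1) were fewer among Myog-positive cells in all 6 populations, for example 24.5% against 51.3% in young 1 and 56.3% against 69.7% in old 3. Chrng stood at 96.2, 91.8 and 106 CPM in young and 164, 70.0 and 93.0 CPM in old Myog-positive cells with contractile genes. In Myog-positive cells below that limit it was at 33.3, 23.3 and 19.9 CPM among the young and 13.3, 29.3 and 41.9 CPM among the old, between the contractile Myog-positive cells and all Myog-negative cells of the same population in 6 of 6. The Myog-negative cells with contractile genes, 26 to 1560 per population, stood at 43.6, 30.9 and 53.7 CPM of Chrng among the young and 23.1, 29.0 and 42.3 CPM among the old. They were thus above the Myog-positive cells below the limit in 5 of 6 populations, and for Chrna1 in 6 of 6, although in old 1 the Chrng values rested on 3 and 2 UMIs. The other members were split. The same order held for Rapsn in 5 of 6 populations, Chrnb1 in 4, Chrnd and Musk in 3 each and Dok7 in 2.

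The other 6 tested members were also higher in the contractile Myog-positive cells than in those below the limit in 6 of 6 populations. Chrne was too rare to compare, with 0 UMIs in the contractile cells of old 2 and 1 below the limit, 1 and 2 UMIs in old 3, and 0 in both classes of the other 4. Chrna1 was at 518, 724 and 160 CPM in young and 433, 983 and 883 CPM in old Myog-positive cells below the limit, and at 1466, 1360 and 845 CPM and 1388, 1334 and 1460 CPM in the contractile ones. Young 3, which had the lowest Chrna1 level over all its Myog-positive cells, also had the smallest contractile share among them. It was the lowest within each of the 2 classes as well, at 160 and 845 CPM. The part of the contractile share in its level was not tested. When cells with contractile genes were left out of both classes, 4 of the 7 members were still called higher in Myog-positive cells, beside 4.13% of 11621 genes called higher: Dok7 (log2 0.95 ± 0.13 SE), Rapsn (0.45 ± 0.08), Chrnd (0.59 ± 0.11) and Chrng (1.30 ± 0.28), with adjusted p from 3.35e-05 to 0.0356 (edgeR). Chrna1 (0.79 ± 0.28, adjusted p = 0.184), Chrnb1 (0.25 ± 0.09, 0.109) and Musk (0.58 ± 0.16, 0.0518) were not called in that fit. Among cells with none of the 4 cycling genes, and among cells with a Myod1 UMI, all 7 were called, beside 14.2% and 16.5% of all genes called higher.

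**Figure D5:**
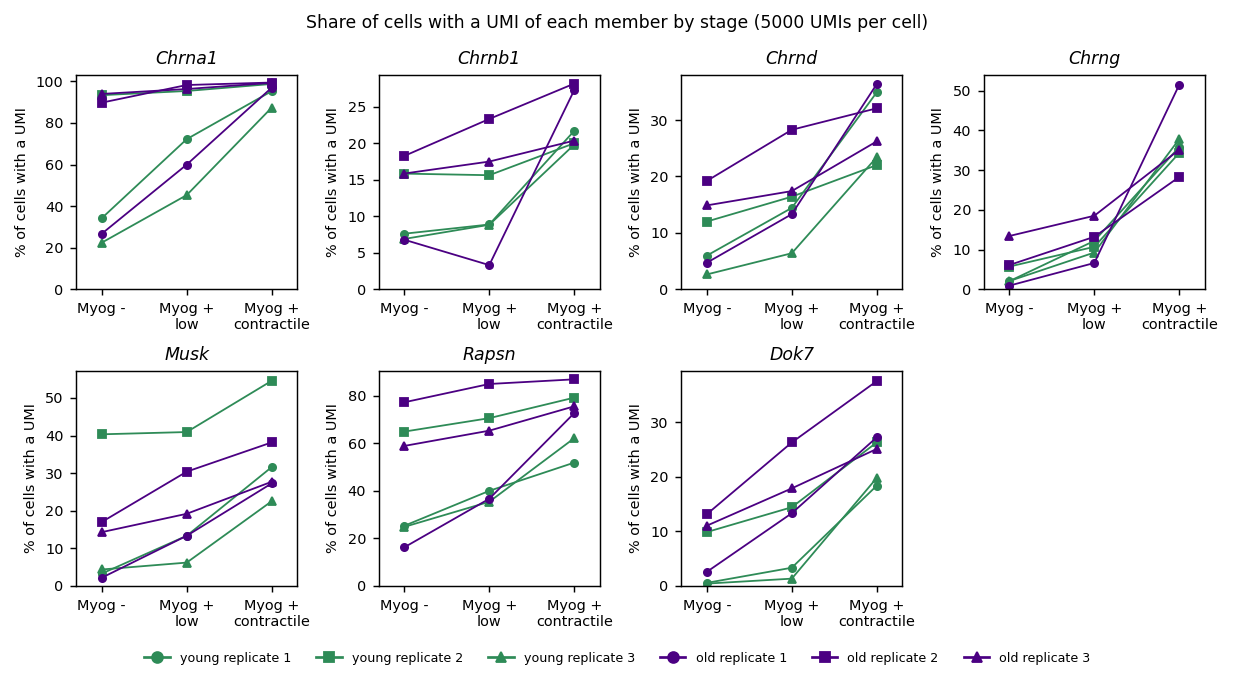
Percentage of cells with a UMI of each gene (vertical axes from 0, scaled per gene) in Myog-negative cells, in Myog-positive cells below the contractile limit and in Myog-positive cells with contractile genes, all at 5000 UMIs; each line is 1 population. Chrng was found in 28.3% to 51.5% of the contractile Myog-positive cells and in 0.965% to 13.4% of Myog-negative ones.

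Myod1, the myogenic factor that acts before myogenin, divided the Myog-negative cells as well. In cells with a Myod1 but no Myog UMI, Chrna1 was at 493.3, 730 and 82.3 CPM among the young and 423, 754 and 836 CPM among the old, against 102, 646 and 54.9 CPM and 72.3, 464 and 507 CPM in cells with neither. Each of the 7 members was higher in the Myod1-only cells than in those with neither in 6 of 6 populations, and was highest in cells with both in 6 of 6, save Chrna1, for which this held in 5. In old 3, Chrna1 was at 1344 CPM in the 201 cells with Myog only and at 1330 CPM in those with both. Chrng was at 106, 71.3 and 61.9 CPM in young and 115, 53.4 and 82.4 CPM in old cells with both.

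Cells with no UMI of 9 myogenic genes (Myod1, Myf5, Pax7, Myog, Des, Cdh15, Mymk, Mymx and Msc) served as a measure of how often a member's UMI was found without a UMI of these 9, at the same 5000 UMIs. Contractile genes were not among the 9, so such cells may hold other signs of the lineage. The cells with no UMI of the 9 numbered 6034, 296 and 7218 among the young and 7594, 1019 and 282 among the old populations. A Chrna1 UMI was found in 21.4%, 86.8% and 20.8% of them among the young and in 13.8%, 71.0% and 25.9% among the old. These shares differed widely between populations and were highest in young 2 and old 2; the part of free RNA in the droplets was not tested. A Chrng UMI was found in 0.365%, 2.03% and 1.84% of such young and 0.369%, 1.28% and 2.13% of such old cells, below the 14.9% to 31.4% of Myog-positive cells in every population.

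RNA of all 4 subunits of the fetal receptor (Chrna1, Chrnb1, Chrnd and Chrng) was found together in few single cells at this depth, and more often where Myog was found. The set was seen in 8, 31 and 2 Myog-positive cells of young 1, 2 and 3 (2.65%, 1.42% and 0.355%) and in 1, 24 and 110 of old 1, 2 and 3 (1.59%, 1.91% and 1.97%). Among Myog-negative cells it was seen in 0.111%, 0.225% and 0.00993% of young and 0.0610%, 0.386% and 0.243% of old ones. The exact 95% intervals of both classes, which cover counting error only, overlapped in young 3 and old 1 and not in the other 4. The adult set, with Chrne in place of Chrng, was seen in 1 cell of all populations, a Myog-negative cell of old 2.

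The genes whose counts followed each member most closely from cell to cell within a population were ranked by the mean Pearson correlation of log-normalised thinned counts over the 6 populations, among 9389 genes found in at least 1% of cells everywhere. For Chrna1 these were Ttn (0.40), Hes6 (0.38), Myod1 (0.35), Mylpf (0.35) and Tnnt3 (0.34). For Chrng they were Mylpf (0.32), Tnnt3 (0.30), Tnnt1 (0.29), Tnnc1 (0.29) and Ttn (0.29). Ttn and the other partners of Chrng encode sarcomere proteins. Musk was nearest to Ttn (0.24) and Neb (0.19), while Chrnd, Rapsn and Chrnb1 were each nearest to Chrna1, at 0.19, 0.21 and 0.11. Myog itself was under 1% of cells in old 1 and outside the ranking; its mean correlation was 0.32 with Chrna1 and 0.30 with Chrng. Values of this size in sparse counts describe these cells only, and all points of a population share 1 library.

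Other genes of the pathway were followed through 5 lists. Of the 11 nicotinic subunits of neurons and other tissues, no member exceeded 1.87 CPM in any population, the highest being Chrna7, which was not called between Myog classes (log2 -1.11 ± 0.45 SE, adjusted p = 0.0793, edgeR). Of 22 genes that carry the agrin signal or anchor receptors, 6 were called higher and 2 lower in Myog-positive cells, beside the 13.6% higher and 17.5% lower of all 12379 genes, with a median log2 fold change of -0.06, equal to that of all genes. Lrp4, the agrin receptor, was among the higher (log2 1.59 ± 0.43 SE, adjusted p = 0.0369, edgeR; higher in 6 of 6 populations). So were Fyn, a Src-family kinase that acts on the clustered receptor (1.88 ± 0.28), and Macf1, which links microtubules to the clusters (1.11 ± 0.15). Src and Abl1, kinases of the same pathway, were called lower (-0.54 and -0.39). Agrn itself was not called (-0.27 ± 0.18, adjusted p = 0.267).

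Of 23 genes of the synaptic scaffold and basal lamina, 18 were tested, of which 11 were called higher and 2 lower in Myog-positive cells, beside 13.6% and 17.5% of all genes, with a median log2 fold change of 0.75. The higher ones included Dmd, dystrophin (2.48 ± 0.34), Dag1, dystroglycan (1.23 ± 0.10), the syntrophin Sntb1 (2.60 ± 0.64) and Ncam1 (1.38 ± 0.28). Kcnn3, a calcium-activated potassium channel, was also called higher (4.65 ± 0.32). It was rare, with 3 to 614 UMIs and at most 3.36 CPM in any population, so its fold change rests on low counts. Kcnn3 was higher in Myog-positive cells in 5 of 6 populations and lower in 1. Sntb2, another syntrophin, was lower (-0.66 ± 0.10), and Utrn, utrophin, was not called (0.05 ± 0.08). Ache and Colq, the acetylcholinesterase and its collagen tail, had 471 and 427 UMIs in all and were not tested. Of 15 tested genes of the neuregulin pathway and of transcriptional control, Erbb3 (4.00 ± 0.35), Erbb2 (0.61 ± 0.17), Myf6 (2.26 ± 0.65) and Myod1 (1.78 ± 0.40) were called higher. Erbb3 is a neuregulin receptor that Schwann cells also express. Nrg1, the ligand (-1.02 ± 0.12), the ETS factor Etv4 (-1.11 ± 0.18) and Myf5 (-0.51 ± 0.15) were called lower. These 4 higher and 3 lower calls, and the 2 below, stand beside the same 13.6% and 17.5%. Of 9 tested genes for receptor assembly and glycosylation, Gfpt1 was called higher (0.26 ± 0.08) and Rer1 lower (-0.22 ± 0.07). Between old and young, 0 genes of any of the 5 lists were called.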

How the data were processed

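The authors deposited raw UMI counts per gene and barcode for 6 samples; per the file headers they were made with Cell Ranger 7.0.0 (young 1 and old 1, 21849 features) or 7.2.0 (32285 features), and the submitters' processing notes name mm10, Cell Ranger 7.2.0 and Seurat 5.134. How introns and strand were counted is not given in the sources used here. The 8 genes and the lists were chosen with earlier results of these data known. All 8 genes are named, and of the 5 pathway lists and the cell type markers the counts with examples; values of the other list genes are not reported here.

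Cells had at least 1000 UMIs and 500 genes and under 15% mitochondrial UMIs. Scrublet called 907 cells (1.47%), nearly all of them in old 3, and none was removed; leaving out the top scores up to the expected share was an alternative. CPM are sums over cells on the shared genes, without further scaling. For classes of cells, each was thinned to 5000 UMIs, which left out 1368 cells. The test was edgeR 4.0.16's two-sided quasi-likelihood F test on summed counts (R 4.3.3, robust, TMM factors, filterByExpr), adjusted by Benjamini-Hochberg over all genes, with a term for the gene list (old against young) or the sample (Myog classes, without Myog). Each SE is the size of the log2 fold change over the square root of F. The script was tested on simulated data. For old against young, the simulated spread was smaller than that of these populations. That test therefore does not measure power or error rates for the age comparison. Alternatives included DESeq2 1.42.0, no TMM, no filter, other depths and leaving out each sample. Samples are labelled biological replicates, and p-values measure the spread between these 6 populations only.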

Additional observations from a re-analysis of the deposited data

How the results depend on the processing

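Old against young, the main count of 1 called gene became 219 with DESeq2, 2 without TMM, 0 without the gene list term, 0 on the longer gene list only, 2 in Myog-positive cells only and 0 to 3 when 1 population was left out; 0 members were called in any of these. Between Myog classes, 3852 genes became 985 and the 7 members called became 4 in cells below the contractile limit, and 4 to 6 members were called when 1 population was left out, beside 9.6% to 13.8% of all genes called higher. The sign of all 7 members was the same in all 18 alternatives. For the interaction, DESeq2 called 1 gene and leaving out 1 population gave 0 to 1. The interaction changed sign for Chrnb1 without young 2 (-0.24), young 3 (-0.04) or old 1 (-0.18), for Chrng without old 3 (0.071), for Rapsn without young 2 (-0.06) or old 1 (-0.36), and for Musk without thinning (0.34), with DESeq2 (0.16) and without young 1 (0.57), old 2 (0.10) or old 3 (0.20). Old against young, the sign changed for Chrna1 (-0.24), Chrnb1 (-0.14), Chrng (-0.16) and Rapsn (-0.28) without young 3, for Chrng (-0.28) without old 3 and for Musk (0.85) without young 2. Leaving out 1 population, old against young ran from -0.24 to 1.70 for Chrna1, -0.14 to 0.66 for Chrnb1, 0.095 to 1.38 for Chrnd, 0.84 to 3.12 for Dok7, -0.28 to 1.42 for Chrng, -1.32 to 0.85 for Musk and -0.28 to 0.93 for Rapsn, and the interaction from -1.10 to -0.06 for Chrna1, -1.06 to -0.23 for Chrnd, -2.59 to -0.46 for Dok7, -0.24 to 0.25 for Chrnb1, -1.40 to 0.071 for Chrng, -0.81 to 0.57 for Musk and -0.36 to 0.42 for Rapsn. Old against young, the fits without young 1 and without old 1 repeat the fit on the longer gene list. In each, the gene list term takes up the 1 population left on the shorter list. The cause of the changes was not tested.

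With the replicate number as a block, old against young gave 1 called gene and 0 members, with Dok7 at 2.01 and Musk at -0.18 (log2), and changed the call of no member. Same-numbered populations correlated at 0.38, 0.22 and -0.08 in their deviations, beside -0.41 to 0.28 for populations with different numbers. Such correlations cannot show whether the numbers pair the populations, and the labels do not say so. Without the replicate block of the Myog comparison, that is, without the sample as a term, 166 genes and 1 member, Chrng, were called.

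Depth limits the rare genes: at 5000 UMIs Chrne had 16 UMIs, and in old 1 Myog-positive cells held 14 to 29 UMIs of Dok7, Musk, Chrnb1, Chrnd and Chrng. The shares of cells moved with depth, for example from 5.42% at 2000 UMIs to 33.4% unthinned for Chrnb1 (mean of 6 samples).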

Other observations

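Within Myog-positive cells, the number of cells holding a UMI of both genes of a pair was set against the product of their shares in each population. Of the 21 pairs of members other than Chrne, 9 had a ratio above 1 in 6 of 6 populations, and single ratios ran from 0.394 to 4.17. For Chrnd and Chrng, neighbours on chromosome 1, the ratio was above 1 in 6 of 6 populations, from 1.04 to 1.83, with 782 cells holding both against 661 from the products. For Chrng and Dok7 it was 1.02 to 2.63 in 6 of 6, with 762 cells against 648. For Chrnb1 and Rapsn, 1452 cells held both against 1452 from the products, with the ratio above 1 in 4 of 6. Among Myog-negative cells the ratio for Chrnd and Chrng was 1.03 to 6.08, and for Chrng and Musk 1.16 to 5.76, each above 1 in 6 of 6. These ratios describe cells of 1 library each and were not tested.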
